A study of Striga hermonthica with 6 samples.

Results

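Of the small RNA loci of *Striga hermonthica*, 372 were higher in both leaf libraries than in every haustorium library. They were chosen from the 25056 loci counted in each library by a rule on the counts themselves: no *MIRNA* mark, at least 10 reads in both leaf libraries, and a lower leaf value above the highest haustorium value. Values were compared as CPM, the count per 1000000 counted reads of the library. Without the *MIRNA* mark there were 24988 loci, of which 18451 had the 10 reads in leaf and could have been chosen (the eligible loci). The 372 loci are 2.02% of these. Because leaf and haustorium counts chose the loci, the leaf and haustorium values below are a description and carry no test.

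*S. hermonthica* is a parasitic plant that draws water and nutrients from cereal roots through the haustorium, the organ that joins parasite and host. Plants of the kibos genotype were raised for 45 days on *Oryza sativa* ssp. japonica of the variety KitaakeX (so named in the labels, and Kitaake in the study's methods), with 16 hours of light at 30 °C. The libraries were 2 of leaf at stage 6 (replicates 1 and 2), 2 of haustorium at stage 6 (replicates 1 and 2) and 2 of haustorium for which the labels give no stage (replicates 1 and 3). All came from the same genotype and host, and no source used here says whether replicates were separate plants or defines the stage. In whole tissue, fewer cells that make a small RNA and less of it per cell cannot be told apart.

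Plants make small RNAs by cutting longer double-stranded or hairpin RNA with Dicer-like enzymes. Hairpins give miRNAs, which pair with messenger RNAs. Most other small RNA loci give short interfering RNAs, many of which come from transposons and repeats and guide DNA methylation there. The loci described here carry no *MIRNA* mark, and the count files give neither the read lengths nor the strand, so the kind of small RNA at each locus is not known. The labelled tissues could not be checked against marker genes, since only small RNA loci were counted.

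The libraries held between 3031863 and 8381235 counted reads, and their composition differed in a way that bears on the rule. The locus at the median of all 25056 had 12.8 and 4.08 CPM in leaf replicates 1 and 2. Stage 6 haustorium replicates 1 and 2 had 4.95 and 12.2 CPM there, and replicates 1 and 3 of haustorium without a stage had 6.68 and 3.83 CPM. Leaf replicate 1 and stage 6 haustorium replicate 2 thus stood above the other 4 libraries at a typical locus. In the same libraries the 10 most abundant loci took 13.7% and 12.5% of the reads, against 21.7% to 24.5% in the other 4. A locus chosen by the rule had to clear stage 6 haustorium replicate 2 with leaf replicate 2, a library of low typical value. TMM, which scales libraries on the bulk of their loci, gave factors of 1.75 and 1.77 to the libraries that stood above and 0.608 to 0.981 to the others.

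The leaf libraries had fewer loci of this kind than most other pairs of libraries. When the same rule was applied to the other 14 choices of 2 libraries out of 6, the counts ran from 274 to 10612 with a median of 867, and the leaf pair was 13th of the 15. As a share of the loci that had 10 reads in both chosen libraries, the leaf pair had 2.02% and the others 1.60% to 52.6%. The highest count came from leaf replicate 1 with stage 6 haustorium replicate 2, a pair of different tissues and the libraries with the highest TMM factors. The 2 lowest counts both involved leaf replicate 2, which gave 274 loci with stage 6 haustorium replicate 1 and 289 with haustorium replicate 1. The pair of stage 6 haustorium libraries had 1154 loci and the pair without a stage had 951.

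On TMM-scaled CPM the leaf pair had 1136 loci, or 6.16% of the eligible loci, and the other pairs had 1179 to 2178, so that the leaf pair was the lowest of the 15. Of the 372 loci, 275 were also chosen on that scale, which is 73.9% of the 372 and 24.2% of the 1136. With DESeq2 size factors as well, 263 of the 372 were chosen on all 3 scales. The count also depended on single libraries. Leaving out a library removes a condition of the rule, so all 372 stay chosen and the count can only rise. Without a leaf library, the rule rests on the other leaf library alone. Leaving out leaf replicate 2 gave 9730 loci, leaving out leaf replicate 1 gave 1003, and leaving out stage 6 haustorium replicate 2 gave 2516. Leaving out haustorium replicate 1 gave 618 and leaving out stage 6 haustorium replicate 1 gave 607.

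**Figure D1:**
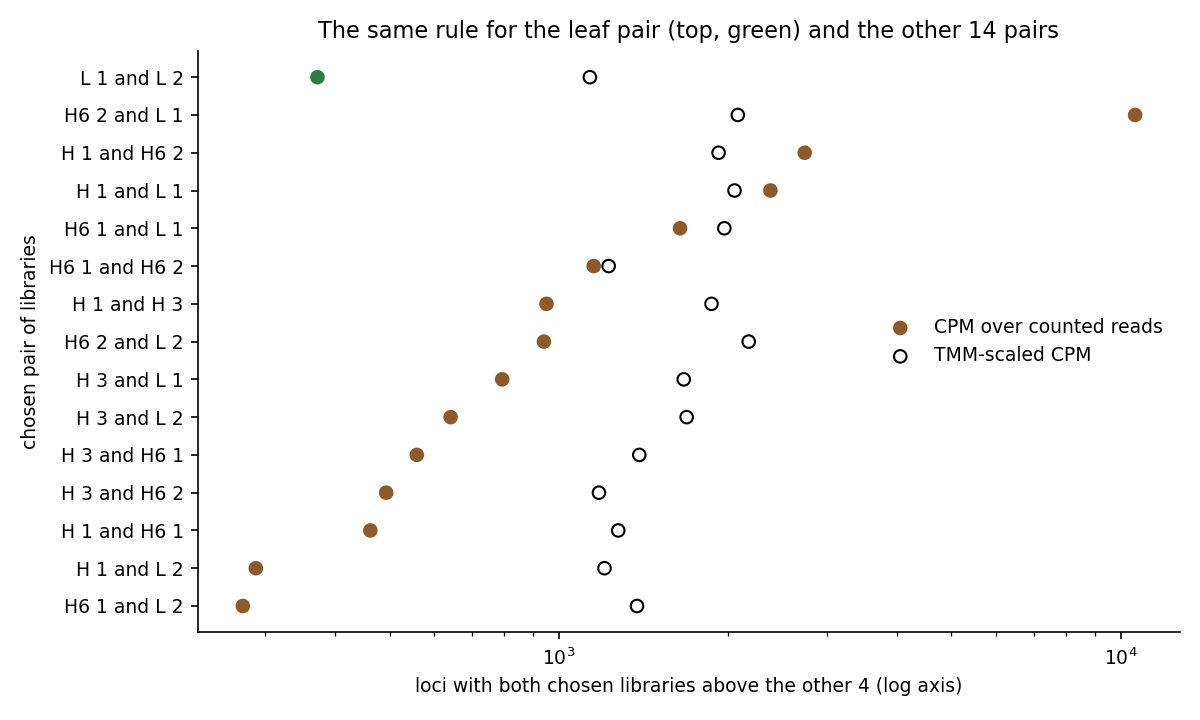
Number of loci (x axis, log scale) at which both chosen libraries exceeded the other 4, for each of the 15 pairs of libraries (y axis: L leaf, H6 stage 6 haustorium, H haustorium without a stage, with the replicate number). Filled points are CPM over the counted reads and open points are TMM-scaled CPM. The leaf pair, in green, had 372 loci by CPM and 1136 after TMM, the lowest of the open points.

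Taken as a whole, the 372 loci were a small part of each library. They held 1.79% and 1.61% of the reads of leaf replicates 1 and 2, against 0.576% and 0.550% of the stage 6 haustorium reads (replicates 1 and 2) and 0.722% and 0.591% of the reads of haustorium without a stage (replicates 1 and 3). A single locus, Cluster_15163, held much of this. Without it the shares were 1.27% and 1.09% in leaf, 0.226% and 0.257% in stage 6 haustorium, and 0.254% and 0.154% in haustorium without a stage.

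A typical member was of modest abundance in leaf and near the limit of detection in several haustorium libraries. The median over the 372 loci was 18.5 and 7.68 CPM in leaf replicates 1 and 2. For stage 6 haustorium replicates 1 and 2 it was 1.32 and 3.31 CPM, and for haustorium replicates 1 and 3 it was 1.49 and 1.03 CPM. At the other 18079 eligible loci the medians were 14.02 and 5.04 CPM in leaf, 5.94 and 14.8 CPM in stage 6 haustorium, and 7.40 and 4.27 CPM in haustorium without a stage. By these medians the members lay above other eligible loci in leaf and, by more, below them in each haustorium library. The rule favours this pattern, although it compares libraries only within a locus. The lower leaf value had a median of 6.82 CPM and ran from 1.20 to 5186 CPM, and in reads it had a median of 56 and ran from 10 to 38348. Leaf replicate 1 was the higher leaf library at 305 of the 372 loci, and the ratio of replicate 1 to replicate 2 had a median of 2.07, against 2.66 at the other eligible loci.

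**Figure D2:**
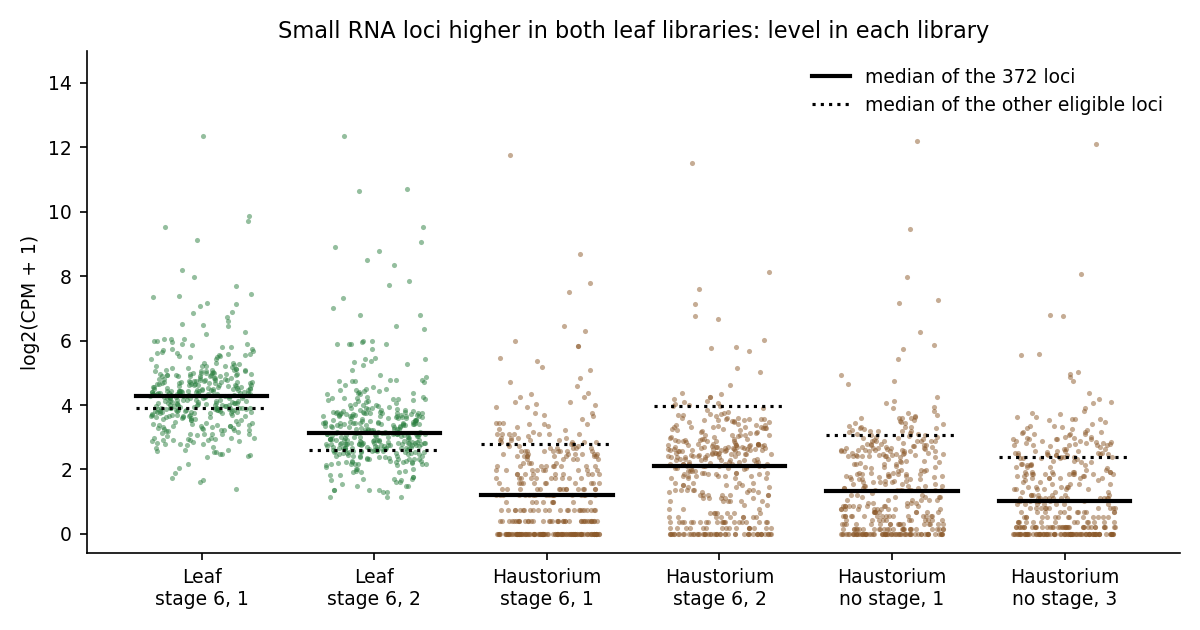
Level of the 372 loci as log2(CPM + 1) (y axis) in each library (x axis), 1 point a locus, with leaf in green and haustorium in brown. Solid lines are the medians of the 372 loci and dotted lines those of the 18079 other eligible loci. The solid line is above the dotted one in both leaf libraries and below it in all 4 haustorium libraries.

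At most loci the gap between leaf and haustorium was small. The ratio of the lower leaf CPM to the highest haustorium CPM, with a highest haustorium value under 3 reads set to 3 reads, had a median of 1.32 and a highest value of 88.5. It was under 1.5 at 226 loci, or 60.8%, from 2 to 10 at 83 loci, and 10 or more at 24 loci, or 6.45%. Unless all 4 haustorium libraries had 0 reads, the floor was set only on the library of highest CPM, and 0 reads elsewhere stayed 0. In stage 6 haustorium replicate 1, the smallest library, 3 reads are 0.989 CPM. This is above the highest haustorium value of 0.477 CPM at Cluster_6056, the locus of ratio 88.5. With that floor at such loci, their ratios and the count of 24 would be lower, and their order could change. At 103 loci, or 27.7%, the exact Poisson 95% interval of the lower leaf value lay above that of the highest haustorium value, and at the rest these intervals overlapped. These intervals leave out everything but counting error, and PCR duplicates count as molecules in them. At the 9 loci without a read in any haustorium library, the interval of haustorium replicate 1, the largest library, was used. The upper limit from stage 6 haustorium replicate 1, the smallest, is higher, so fewer of these loci may be apart from it. Among the other 14 pairs, 111 to 4901 loci had intervals apart, so the leaf pair was the lowest of the 15. Its count of loci with a ratio of 10 or more was 8th of the 15 (range of the others 8 to 196), and their share of 6.45% was second to the 6.57% of haustorium replicate 1 with leaf replicate 2.

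The library that came closest to leaf was stage 6 haustorium replicate 2 at 162 loci, haustorium replicate 1 at 93, stage 6 haustorium replicate 1 at 64 and haustorium replicate 3 at 53. The lower of the leaf values was that of replicate 2 at 305 loci. At the threshold, leaf and haustorium differed by less than counting error. Just inside it, Cluster_5585 had 5.16 CPM in leaf replicate 2 and 5.15 CPM in haustorium replicate 3, from 43 and 35 reads. Cluster_23997 had 7.62 CPM in leaf replicate 1 and 7.59 CPM in stage 6 haustorium replicate 1, and Cluster_7031 had 4.63 CPM in leaf replicate 1 and 4.60 CPM in stage 6 haustorium replicate 2. Just outside, Cluster_18275 had 6.26 CPM in leaf replicate 1 and 6.27 CPM in stage 6 haustorium replicate 1. Cluster_2015 had 6.60 CPM in leaf replicate 2 and 6.62 CPM in stage 6 haustorium replicate 2, and Cluster_23590 had 12.48 and 12.51 CPM in the same libraries.

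The 372 loci differed in how many haustorium libraries reached 10 reads. None did at 80 loci, or 21.5%, where the median ratio was 5.23 and leaf replicate 1 was the higher leaf library at 90.0%. Of the other eligible loci, 0.0111% were like this. The rule largely sets this contrast and the one for all 4 libraries below, since it caps the haustorium values of members. At 68 loci 1 haustorium library did, and it was stage 6 haustorium replicate 2 at 39 of them, haustorium replicate 1 at 15, haustorium replicate 3 at 8 and stage 6 haustorium replicate 1 at 6. At 83 loci 2 libraries reached 10 reads, at 82 loci 3 did, and at 59 loci, or 15.9%, all 4 did, against 55.5% of the other eligible loci. The median ratio over these last 59 loci was 1.11. The count of loci under 10 reads in all the libraries outside the pair was 80 for leaf and 11 to 364 for the other pairs, with a median of 64.5.

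**Figure D3:**
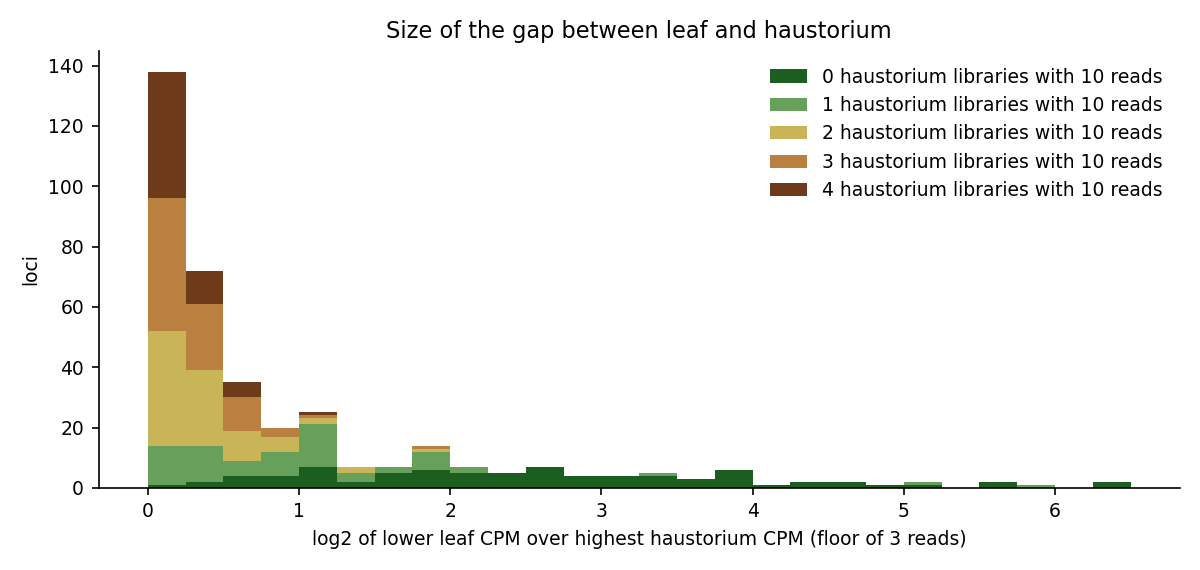
Number of the 372 loci (y axis) by the log2 ratio of the lower leaf CPM to the highest haustorium CPM (x axis, bins of 0.25), coloured by the number of haustorium libraries with at least 10 reads. Loci with at least 10 reads in 3 or 4 haustorium libraries lie mostly near 0 (median ratios 1.16 and 1.11), and the 24 loci with a ratio of 10 or more lie to the right of 3.3.

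The locus of highest lower leaf value, Cluster_15163, was abundant in every library and only slightly higher in leaf. In the SHERM assembly it spans positions 528008 to 528480 of contig CACSLK010027789.1, with the annotated gene SHERM_25215 at a distance of 859 nt. It had 5219 and 5186 CPM in leaf replicates 1 and 2, against 3505 and 2925 CPM in stage 6 haustorium (replicates 1 and 2) and 4683 and 4364 CPM in haustorium without a stage (replicates 1 and 3). The lower leaf value was 1.11 times the highest haustorium value (95% counting interval 1.09 to 1.12), and the locus was not chosen on the TMM scale.

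At 3 of the 8 loci of highest lower leaf value, a single haustorium library came near leaf while the others held almost no reads. Cluster_17394, on contig CACSLK010027837.1 from 5406223 to 5406659, had 936 and 1584 CPM in leaf replicates 1 and 2 and 702.9 CPM in haustorium replicate 1. It had 2 reads in haustorium replicate 3 and none in either stage 6 haustorium library. Cluster_5490, on contig CACSLK010012233.1 from 3073334 to 3073770, had 736 and 436 CPM in leaf and 408 CPM in stage 6 haustorium replicate 1, with 1 read in haustorium replicate 3 and none in the remaining haustorium libraries. Cluster_1588, on contig CACSLK010003174.1 from 2547979 to 2548454, overlaps the gene SHERM_10886. It had 249 and 729 CPM in leaf and 141 CPM in stage 6 haustorium replicate 2, with 0 reads in the other 3 haustorium libraries, which allows up to 3 reads in each. The haustorium library that held the reads was a different one at each of these loci.

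The rest of the 8 had reads in all libraries. Cluster_13437, on contig CACSLK010027751.1 from 10757984 to 10758670, had 837 and 359 CPM in leaf, 62.0 and 279 CPM in stage 6 haustorium, and 249.7 and 111 CPM in haustorium without a stage. Cluster_21231, on contig CACSLK010030875.1 from 9696861 to 9697351, had 294 and 475 CPM in leaf, 218 and 194 CPM in stage 6 haustorium, and 153 and 266 CPM in haustorium without a stage. In CPM, leaf replicate 1 was the higher leaf library at the first of these and replicate 2 at the other. On TMM-scaled CPM replicate 2 was the higher at both (478 and 553 in replicates 1 and 2 at Cluster_13437). Cluster_16068, which overlaps SHERM_26431, had 204 and 324 CPM in leaf, with haustorium values from 1.29 to 179 CPM. Cluster_5660, which overlaps SHERM_15352, had 114 and 229 CPM in leaf, with haustorium values from 25.9 to 100.97 CPM. The table of genes used here gives no product for these genes, so no function is named.

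The loci of largest ratio were nearly without reads in haustorium. Cluster_6056, on contig CACSLK010013932.1 from 590059 to 590529 and 606 nt from SHERM_15801, had 973 and 352 reads in leaf replicates 1 and 2. It had 4 reads in haustorium replicate 1, 1 in replicate 3 and 0 in both stage 6 haustorium libraries, a ratio of 88.5 (95% counting interval 34.3 to 327). Cluster_15670, on contig CACSLK010027829.1 from 2233547 to 2234013, had 4127 and 489 reads in leaf and 5 and 3 reads in haustorium replicate 3 and stage 6 haustorium replicate 2, with a ratio of 79.7 (33.9 to 247). Both lie within 1000 nt of an annotated gene, Cluster_15670 at 999 nt from SHERM_25874.

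Cluster_15370 had similar CPM in both leaf libraries. It lies on contig CACSLK010027802.1 from 469683 to 470102, 2965 nt from SHERM_25528, and had 142 and 110.1 CPM in leaf replicates 1 and 2. In haustorium it had 0.66 and 1.73 CPM in stage 6 replicates 1 and 2 and 0 and 0.29 CPM in replicates 1 and 3 without a stage, a ratio of 63.8 (36.3 to 124). Cluster_8852, on contig CACSLK010020336.1 from 1357077 to 1357493, had 267 and 333 reads in leaf, 5 reads in stage 6 haustorium replicate 2 and none elsewhere, with a ratio of 50.5 (21.4 to 157). In CPM these loci had leaf replicates within 1.5 times of each other, unlike the next. This depended on the scale. On TMM-scaled CPM, leaf replicates 1 and 2 had 81.0 and 170 at Cluster_15370 and 20.8 and 61.6 at Cluster_8852.

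Cluster_13271, on contig CACSLK010027751.1 from 7115206 to 7115677, had 87.0 and 1684 CPM in leaf replicates 1 and 2 and up to 2.59 CPM in haustorium, with a ratio of 33.6 (21.1 to 57.0). Cluster_11248 had 175 and 26.3 CPM in leaf and 6 reads in haustorium replicate 1 alone, with a ratio of 36.7 (16.6 to 101.2). Cluster_6990 had 657 and 143 reads in leaf and 2 and 1 reads in haustorium replicates 1 and 3, with a ratio of 71.9 on the reads as counted (19.6 to 599.7) and 48.0 with the floor of 3 reads. Cluster_5835 had 219 and 100 reads in leaf and 1 and 3 reads in stage 6 haustorium replicates 1 and 2, with a ratio of 27.8 (9.25 to 137). All 8 loci of largest ratio were also chosen on the TMM scale, against 2 of the 8 loci of highest lower leaf value, Cluster_13437 and Cluster_1588.

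**Figure D4:**
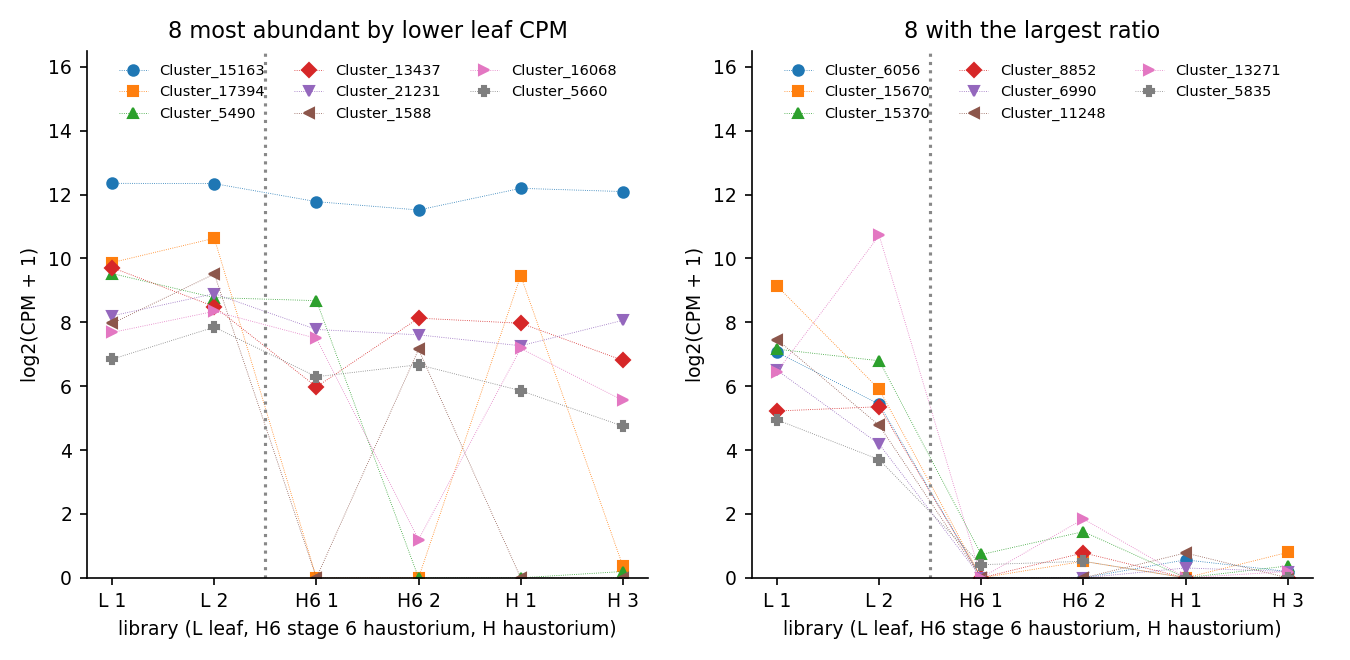
Level as log2(CPM + 1) (y axis) in each library (x axis) of the 8 loci of highest lower leaf CPM (left) and the 8 of largest ratio (right), with leaf left of the vertical line and haustorium right of it. The points of a locus are joined only to guide the eye. On the left, Cluster_17394, Cluster_5490 and Cluster_1588 each have 1 haustorium library near the leaf level, and on the right all haustorium values are below 3 CPM.

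At 9 loci no haustorium library had a read, and these were picked out after their values were seen. Among the other 14 pairs the same count ran from 0 to 30 with a median of 3.5, and the leaf pair ranked 3 of the 15. A count of 0 allows up to 3 reads, which is 0.989 CPM in stage 6 haustorium replicate 1, the smallest library. The lower leaf CPM of Cluster_15771, with 138 and 56 reads in leaf replicates 1 and 2, was 6.79 times this floor. That of Cluster_1613, with 141 and 55 reads, was 6.67 times the floor. Cluster_4647 had 15 and 491 reads in leaf, and its lower leaf CPM was 2.06 times the floor. These ratios leave out the counting error of the leaf reads, so they are not lower limits. Leaf replicate 1 was the higher library at 8 of the 9, all but Cluster_4647. They were 0.402 to 0.434 kb long.

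Over all members, long loci were fewer than among other eligible loci, but the direction varied among loci detected in the same number of haustorium libraries. The median length was 0.421 kb against 0.424 kb at the other eligible loci, and the upper quartiles were 0.430 kb against 0.466 kb. Loci of 0.8 kb or more made up 1.08% against 5.09%, and loci of 0.425 to 0.799 kb 28.8% against 39.1%. Those of 0.420 to 0.422 kb made up 15.6% against 9.30%, and those under 0.415 kb 28.2% against 21.6%. Among the loci chosen for the other 14 pairs, median lengths ran from 0.417 to 0.424 kb, a range that holds the 0.421 kb of the leaf pair. Length also went with the number of haustorium libraries that reached 10 reads. Where all 4 did, the median was 0.442 kb at the members and 0.432 kb at other eligible loci, where 3 did it was 0.421 kb at both, where 2 did it was 0.417 and 0.418 kb, and where 1 did it was 0.4185 and 0.417 kb. Loci of 0.425 kb or more made up 64.4% of the members against 58.6% of other eligible loci where all 4 did, 26.8% against 29.1% where 3 did, 19.3% against 20.8% where 2 did, and 27.9% against 19.2% where 1 did. The share of long loci among the members was thus higher in the first and last of these classes and lower in the others.

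The 3 longest loci were present in every library with small gaps. Cluster_6605, of 1410 nt, had 161 and 109.6 CPM in leaf, 86.4 and 108 CPM in stage 6 haustorium and 76.8 and 106.9 CPM in haustorium without a stage. Cluster_22525, of 1054 nt on a contig without an annotated gene, had 91.2 and 61.9 CPM in leaf and 26.0 to 55.7 CPM in haustorium. Cluster_6037, of 944 nt, had 72.8 and 80.9 CPM in leaf and 16.2 to 63.3 CPM in haustorium. The counting intervals of the lower leaf and the highest haustorium library overlapped at all 3.

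The loci lay farther from annotated genes than other eligible loci did. Position was not used by the rule. Of the 372 loci, 70.2% were over 1000 nt from the nearest gene, against 60.2% of the other eligible loci, and 13.98% were within 1000 nt without overlap, against 24.5%. A gene was overlapped by 37 members, or 9.95%, against 11.3% (14.96% when leaf replicate 1 was left out), and 5.91% were on contigs without an annotated gene, against 4.005%. Outside genes, the median distance was 4331 nt against 2520 nt. For the other 14 pairs the share over 1000 nt from a gene ran from 56.9% to 67.7%, so the leaf pair had the highest of the 15. On the TMM scale it had 67.0%, second to the 67.4% of leaf replicate 1 with stage 6 haustorium replicate 2.

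This share also went with the number of haustorium libraries in which a locus reached 10 reads. Where 1 library did, 75% of the members were over 1000 nt from a gene, against 71.2% of other eligible loci. The values were 67.5% against 65.2% where 2 did, 67.1% against 62.0% where 3 did, and 62.7% against 57.6% where all 4 did. Where none did, it was 77.5% of 80 members, with only 2 other eligible loci to set beside them. The difference had the same direction as 70.2% against 60.2%, and was smaller, at each number from 1 to 4. Haustorium counts chose the members, so the difference cannot be divided between this number and membership. Loci are not replicates and pairs of libraries share loci, so no test was made. Leaving out leaf replicate 1 gave a share of 63.7%, and leaving out leaf replicate 2 gave 63.4%.

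**Figure D5:**
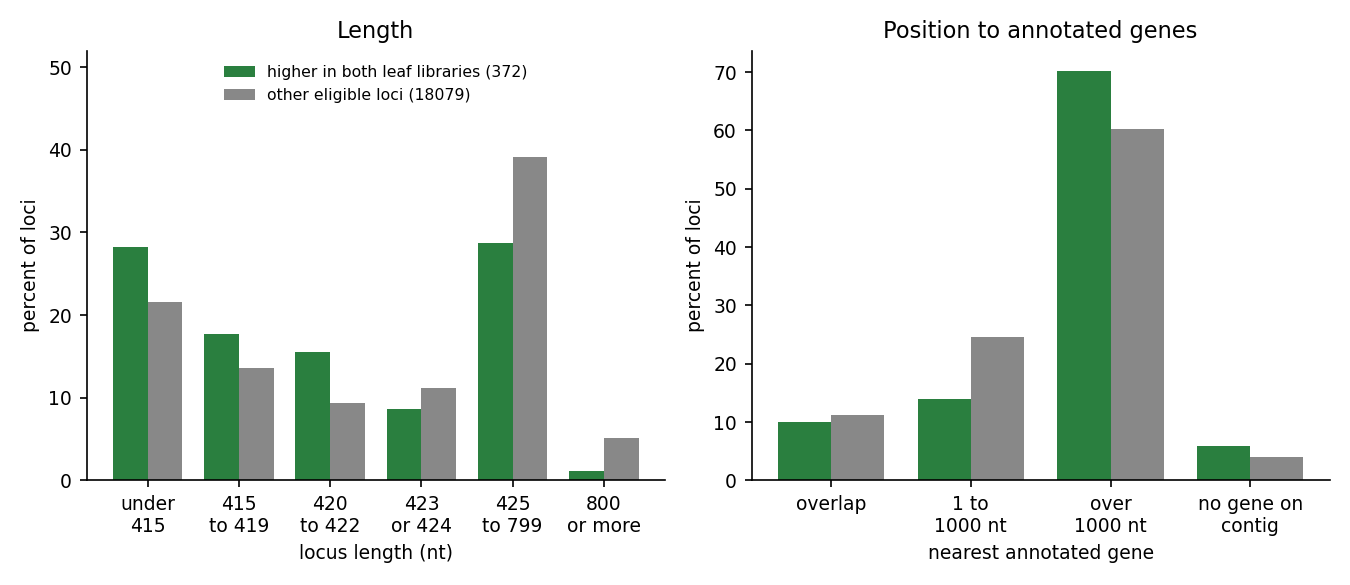
Percent of loci (y axis) by locus length in nt (left, classes as described above) and by distance to the nearest annotated gene (right), for the 372 loci in green and the 18079 other eligible loci in grey. The green bar is lower in the classes of 0.425 kb and longer and within 1000 nt of a gene, and higher at over 1000 nt (70.2% against 60.2%).

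The loci were spread over the assembly. They lay on 104 of the 971 contigs that held eligible loci, with a single member on 45 of them. On the 30 contigs with at least 200 eligible loci, which held 233 members, 0.942% to 3.67% of the eligible loci were members, with a median of 1.83%. The highest share was on CACSLK010027751.1 (8 of 218) and the most members on CACSLK010020742.1 (13 of 855). Of the 372 loci, 17 had another member as the next locus on the contig, or 4.57%, against 2.65% of the other eligible loci. For the other 14 pairs the share ran from 2.92% to 68.2% with a median of 10.3%. Leaving out leaf replicate 2 gave 57.4%, leaving out stage 6 haustorium replicate 2 gave 23.3% and leaving out leaf replicate 1 gave 8.77%. The 17 loci formed 7 neighbouring pairs and 1 run of 3.

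The run of 3, Cluster_11944 to Cluster_11946, lies on contig CACSLK010024787.1 between 3355916 and 3384373, with 14753 and 12467 nt between its loci. Cluster_11944 had 210 and 41 reads in leaf replicates 1 and 2, 2 and 0 in stage 6 haustorium and 0 and 3 in haustorium without a stage. Cluster_11945 had 137 and 23 reads in leaf, 2 and 7 in stage 6 haustorium and 2 and 2 in haustorium without a stage. Cluster_11946 had 83 and 28 reads in leaf, 5 and 20 in stage 6 haustorium and 7 and 18 in haustorium without a stage. All 3 were higher in leaf replicate 1 than in leaf replicate 2, and the ratio to the highest haustorium library, on the reads as counted, was 7.46 (95% counting interval 1.94 to 63.7), 2.74 (1.14 to 7.57) and 1.17 (0.635 to 2.19) along the run. The interval of the last of these includes 1.

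In a fit over all loci, edgeR called no member between leaf and haustorium. Of the 24421 loci with enough reads to be tested, 369 were members, and their log2 fold change of leaf over the mean of the haustorium groups, after TMM, had a median of 2.50 and ran from 0.35 to 12.06, against a median of 0.12 over all loci tested. At an adjusted p under 0.05, edgeR's quasi-likelihood test called 0 loci, or 0% of those tested, and 795 had an unadjusted p under 0.05, of which 160 were members. DESeq2 called 98 loci higher in leaf, or 0.391% of 25056, of which 62 were members, and 103 loci lower in leaf, of which none were. The members were chosen on this contrast, so nothing is read from these counts.

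The rule caps all 4 haustorium values, and stage 6 haustorium replicate 2, the haustorium library of highest typical value, was the one closest to leaf at 162 of the 372 loci. The comparison of stage 6 haustorium with haustorium without a stage therefore also draws on values that chose the loci, and is given as a description from which nothing is read about the members. Here edgeR called 0 of the 24421 loci tested, or 0%, and no member, while 1073 loci, 27 of them members, had an unadjusted p under 0.05. DESeq2 called 393 of the 24084 loci for which it gave an adjusted p, or 1.63%, and 7 of the 372 members, or 1.88%. The log2 fold change of stage 6 haustorium over haustorium without a stage had a median of -0.24 over the members and 0.02 over all loci tested after TMM, and of 0.40 and 0.74 with library totals only, so its sign over the members turned with the scale. It lay below the median of all loci on both scales, and above it with the replicate number as a block (0.02 and -0.03). Without haustorium replicate 1 the median was 0 over the members and 0.25 over all loci. In CPM, both stage 6 haustorium libraries were above both without a stage at 78 members, or 21.0%, and below both at 37, or 9.95%. Among the other eligible loci these shares were 29.5% and 4.89%.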

How the data were processed

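The authors trimmed adapters and ran ShortStack 4.0.4, with its default options and its search for new *MIRNA* loci, on the SHERM assembly, and deposited, for each of the 6 libraries, raw counts of reads per small RNA locus with its coordinates and a *MIRNA* mark. Counts were used as deposited, without rounding, and depth was the sum over the 25056 loci. The distance of each locus to 29520 annotated genes was taken on the same assembly, and genome sequence was not used.

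The fit across loci used the quasi-likelihood test of edgeR 4.0.16 (R 4.3.3) on 3 groups with 3 residual degrees of freedom. Loci were kept by filterByExpr, with TMM factors and a Benjamini-Hochberg adjusted p under 0.05. The fit was also run on simulated data of smaller spread than the real data, whose common biological coefficient of variation was 1.00. That run does not show whether the fit could call loci here. The alternatives were DESeq2 1.42.0, other scales, filters and read floors, leaving out single libraries, and the replicate number as a block. Where replicates are not separate plants, p-values may reflect technical spread alone. Named loci were the 8 members of highest lower leaf CPM, the 8 of largest ratio, the 3 longest, the 3 just inside and 3 just outside the threshold, the longest run and any called by edgeR (none was). The members, lists and rules were chosen with earlier results of these data known. Counts for the other 14 pairs are given without a test. Counts per pair, intervals and figures were made in Python 3.11.15.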

Additional observations from a re-analysis of the deposited data

How the results depend on the processing

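The count of 372 loci was 1136 with TMM-scaled CPM, 1127 with DESeq2 size factors, 110 with a lower leaf CPM at least 2 times the highest haustorium CPM (no floor on reads in haustorium), 992 against stage 6 haustorium only, and 3604 without both libraries of highest TMM factor. Leaving out each library, where the count can only rise, gave 540 to 9730. Read floors of 1, 5 or 20, thinning to the smallest library and including *MIRNA* loci gave 348 to 404. Under thinning 260 of the 372 (69.9%) were chosen again, and with the 10 most abundant loci left out of the totals 347 of the 372 were chosen. The median ratio of 1.32 was 1.23 with TMM or DESeq2 size factors, and leaving out each library gave 1.34 to 1.60. The median length of 0.421 kb then ranged from 0.418 to 0.423 kb. The share overlapping a gene, 9.95%, then ranged from 9.33% to 14.96%, the highest without leaf replicate 1. The share next to another member, 4.57%, was 8.54% with TMM, 9.67% with DESeq2 size factors, 1.82% with the gap of 2 times, and 4.69% to 57.4% leaving out each library (23.3% without stage 6 haustorium replicate 2, 8.77% without leaf replicate 1 and 57.4% without leaf replicate 2). Shares over 1000 nt from a gene, an alternative added after the data were seen, ranged from 63.4% to 73.6%.

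DESeq2 called 62 of the 372 members (16.7%) in leaf against haustorium, beside 201 of 25056 loci (0.802%, 98 higher in leaf and 103 lower). In stage 6 haustorium against haustorium it called 7 members (1.88%), beside 393 of 24084 loci (1.63%). Both contrasts draw on values that chose the members, so nothing is read from these counts. In every alternative edgeR called 0, and the cause of this difference was not tested. With a replicate block, edgeR called 0 members in either contrast. The block left 1 residual degree of freedom, and libraries that share a number did not deviate together (r = -0.14 between stage 6 haustorium and leaf, across loci, which are not independent). A crossed block, added after the data were seen, also gave 0 calls.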
